A study of Mus musculus with 18 samples.

Results

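The genes described here are 10 membrane transporters and lipid translocases that carry bile acids, organic anions and biliary lipids across the hepatocyte, selected by symbol from the 19057 genes of a liver RNA-seq table. They are Slc10a1, Slco1a1, Slco1a4, Slco1b2, Abcb11, Abcc2, Abcc3, Abcc4, Abcb4 and Atp8b1. All 10 were in the table, and 9 of them had a mean of at least 1 RPKM over all libraries and were tested, together with 10204 genes in all. RPKM scales the reads of a gene by its length and by the library's read total. Abcc4 stayed below that level and is given by its values and, once, by a fit without that filter.

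Livers came from male ICR mice, an outbred stock, at 10 weeks of age, in 6 groups of 3 libraries each, 18 libraries in all. Con mice were the controls. A10 mice received alginate oligosaccharide (AOS), a short sugar chain made from brown seaweed alginate, at 10 mg/kg. HS mice received a high-fat diet (HFD) and streptozotocin (STZ), a compound that destroys pancreatic beta cells, which serves as a model of type 2 diabetes. HS+A10 mice received HFD, STZ and AOS at 10 mg/kg. A10-FMT mice received HFD, STZ and fecal microbiota transplantation (FMT) from donors given AOS at 10 mg/kg, and Con-FMT mice received HFD, STZ and FMT from control donors. The A10 and HS+A10 groups are known from the sample labels alone. No group received HFD or STZ alone, so their effects cannot be told apart. The labels do not say whether a library is 1 animal or a pool.

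A hepatocyte has a sinusoidal side, which faces the blood, and a canalicular side, which faces the bile. Bile acids returning from the gut are taken up from blood by the sodium-dependent carrier Slc10a1 (Ntcp) and, without sodium, by the organic anion carriers Slco1a1, Slco1a4 and Slco1b2. They are secreted into bile by Abcb11 (the bile salt export pump), while Abcc2 (Mrp2) secretes bilirubin glucuronides, glutathione conjugates and other organic anions. Abcb4 (Mdr2) moves phosphatidylcholine into bile, where it protects the duct lining from the detergent action of bile acids, and Atp8b1 returns phosphatidylserine to the inner leaflet of the canalicular membrane. Abcc3 (Mrp3) and Abcc4 (Mrp4) export bile acid and drug conjugates back to the blood. The bile acid receptor Nr1h4 (FXR), the xenobiotic receptors Nr1i2 and Nr1i3, and the oxidant-responsive factor Nfe2l2 (Nrf2) are known regulators of these genes.

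The relative depth of the libraries, read from the step sizes of the low values of 24 genes, lay between 0.949 and 1.04 of the mean. Only genes whose steps were alike across libraries entered, which by itself keeps the range narrow, so it cannot show equal depth. The number of reads is not given in the sources used here. The spread within each group of 3 is therefore the only measure of precision. RPKM summed over all genes ranged from 692818 to 806937. The 5 hepatocyte markers in the table lay between 138 and 37250 RPKM in every library. Con-FMT replicate 3 stood apart by its mRNAs of pancreatic acinar cells. The summed level of their 10 markers was 15190 RPKM there (2.17% of all RPKM) and 14.1 to 49.8 RPKM in the other libraries. The third libraries of Con and A10 also stood apart. Among 140 tested genes that differed over 2-fold between Con replicates 1 and 2, Con replicate 3 lay between them in 98.6%, and among 135 such genes A10 replicate 3 lay between the other A10 libraries in 96.3%. In the 12 libraries of the 4 groups given HFD and STZ this share was 54.9 to 74.4%. Over genes above 20 RPKM, the SD of the log2 distance from the mean of the other libraries was 0.0782 in Con replicate 3 and 0.0944 in A10 replicate 3, against 0.201 to 0.334 in those 12 libraries. The values of these libraries were thus close to a weighted mean of their group mates, with a median weight of replicate 1 of 0.528 in Con and 0.354 in A10. Of the 10 transporters, 8 lay between the other libraries in Con replicate 3 and 8 in A10 replicate 3. The origin of this closeness was not tested, and calls of transporters that rest on Con or A10 are therefore given also without the third libraries of both groups, as are counts from the other lists where they changed.

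The 10 genes lie on 8 chromosomes of GRCm38. Slco1b2 (chr6:141629518-141686646), Slco1a4 (chr6:141805440-141856199) and Slco1a1 (chr6:141907282-141946962) lie near each other on chromosome 6. Reads of such related genes may have been split between them by the mapping. Upstream sequence, from RefSeq on GRCm38.p6, is shown for the transporters that were called higher in HS than in Con and had an entry, so that a reader can see the DNA before each start site. Of the 10 transporters, 8 had an entry, and Abcc3 and Atp8b1 had none. The 250 bases before each start were searched on both strands for the exact FXR inverted repeat GGTCANTGACC, for TGACNNNGC, the core of the antioxidant response element bound by Nfe2l2, and for GTTAAT, a half-site of HNF1 factors, with N standing for any base. Matches are in capitals. The stretches run 5′ to 3′ on the strand of the gene and stop before the first annotated base of the gene. The stretches are Abcb11 at chr2:69342617-69342866 on the minus strand, and Abcb4 at chr5:8893471-8893716, Slco1b2 at chr6:141629268-141629517 and Abcc2 at chr19:43782058-43782191 on the plus strand. A stretch of 30 bases around the match of Abcc2, at chr19:43782200-43782229, is given apart because it lies within the annotated gene, before the RefSeq start.
Abcb11: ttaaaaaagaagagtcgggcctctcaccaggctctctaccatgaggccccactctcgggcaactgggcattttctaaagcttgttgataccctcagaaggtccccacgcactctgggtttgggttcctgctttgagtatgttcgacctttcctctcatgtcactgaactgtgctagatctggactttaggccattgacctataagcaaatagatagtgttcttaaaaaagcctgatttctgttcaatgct
Abcb4: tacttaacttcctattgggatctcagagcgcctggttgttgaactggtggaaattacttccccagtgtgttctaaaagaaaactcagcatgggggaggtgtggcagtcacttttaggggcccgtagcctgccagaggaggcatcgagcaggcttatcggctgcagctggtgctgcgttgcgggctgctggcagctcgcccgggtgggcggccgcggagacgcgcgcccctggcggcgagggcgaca
Slco1b2: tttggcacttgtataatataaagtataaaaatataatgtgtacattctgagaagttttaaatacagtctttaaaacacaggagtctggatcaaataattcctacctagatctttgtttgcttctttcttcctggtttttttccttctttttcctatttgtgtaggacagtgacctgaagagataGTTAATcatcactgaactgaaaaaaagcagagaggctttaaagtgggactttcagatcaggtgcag
Abcc2: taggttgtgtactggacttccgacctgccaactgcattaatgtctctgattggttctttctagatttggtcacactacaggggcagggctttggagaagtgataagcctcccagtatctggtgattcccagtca
Abcc2, around the match: ctcactgggaTGACATAGCattcatctagc

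The antioxidant response element core was found before Abcc2, starting 98 bases before the RefSeq start, and before both starts of Abcc4. The HNF1 half-site was found 66 bases before the start of Slco1b2. No exact FXR repeat was found before any of the 8 transporters, and Abcb11 and Abcb4 held none of the 3 motifs. Among all 32851 promoter entries, 10.2% held the antioxidant response element core, 6.43% the HNF1 half-site and 0.0335% the exact FXR repeat. A match describes letters in this window and is not a measured binding site. The lack of a match does not show that a site is absent. An exact repeat this rare was unlikely among 8 genes whatever their regulation. Inexact forms of it, such as ggccattgacc in the Abcb11 stretch, were not counted.

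In control liver the carriers of the sinusoidal side were the most abundant of the transporters. Mean RPKM in Con was 302 for Slc10a1, 191 for Slco1b2 and 139 for Slco1a1, above 97.1 to 98.5% of all genes. Slco1a4 was far lower at 5.59 RPKM. On the canalicular side Abcb11 stood at 71.9 RPKM, Abcb4 at 34.6, Abcc2 at 24.3 and Atp8b1 at 5.57. Of the basolateral exporters, Abcc3 stood at 31.6 RPKM and Abcc4 at 0.29. The neighbours Abcb4 and Abcc3, Abcc3 and Abcc2, and Slco1a4 and Atp8b1 overlapped between Con libraries, while the other neighbours in this order did not. The plot of levels by library shows all 10 genes.

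**Figure D1:**
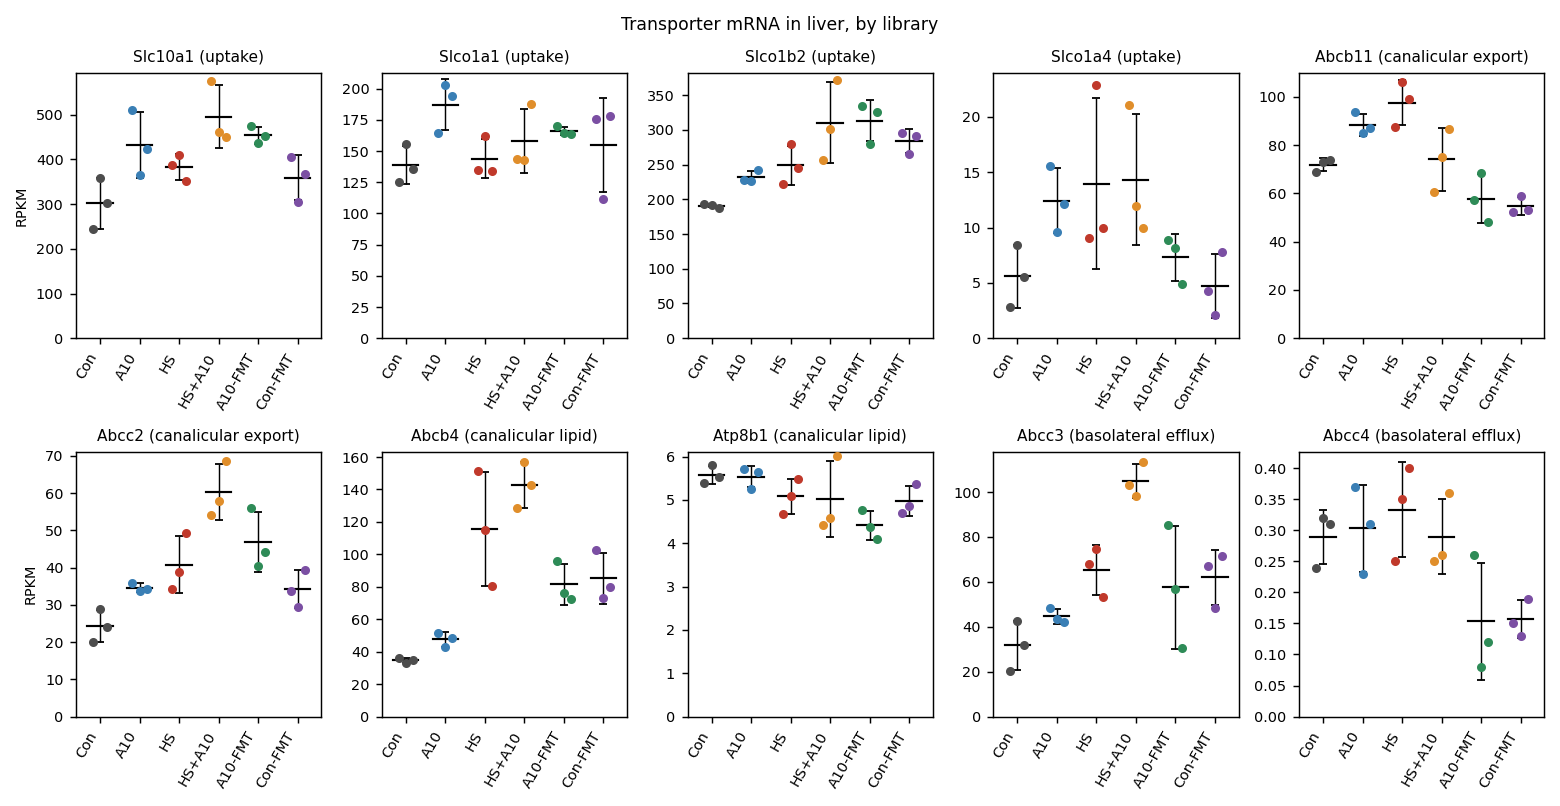
RPKM of each transporter (y axis, linear from 0) in the 6 groups (x axis). Points are single libraries, horizontal bars the mean and whiskers the SD of 3 libraries. Abcb4 is higher in all 12 libraries given HFD and STZ (72.6 to 157 RPKM) than in the 6 Con and A10 libraries (33.0 to 51.4 RPKM).

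The comparison of HS with Con asks what HFD and STZ change in the liver. Abcb4, Abcc3, Abcc2, Abcb11 and Slco1b2, that is 5 of the 9 tested transporters, rose in HS and none fell. The background is wide, since 15.9% of all tested genes were called higher in HS. The median log2 change was 0.43 over the transporters and 0.14 over all genes.

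Abcb4, the phosphatidylcholine translocase, changed most. Its RPKM was 36.0, 33.0 and 34.7 in the Con libraries and 151, 115 and 80.7 in the HS libraries. The groups did not overlap, although HS replicate 3 was much lower than HS replicate 1. On the log2(RPKM + 1) scale the difference was 1.67 with an SE of 0.18 (3.18-fold, adjusted p = 8.2e-05), and it was called in all 6 fits that left out 1 Con or HS library, with a range of 1.45 to 1.90.

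Abcc2, the canalicular exporter of organic anion conjugates, had 20.01, 28.8 and 24.0 RPKM in Con and 34.3, 38.8 and 49.3 RPKM in HS. All HS libraries lay above all Con libraries. The difference was 0.72 on the log2 scale with an SE of 0.16 (1.65-fold, adjusted p = 0.0081), and it was called in all 6 fits that left out 1 Con or HS library.

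Abcc3, which exports bile acid and drug glucuronides to the blood, had 20.4, 42.6 and 31.9 RPKM in Con and 68.1, 74.5 and 53.1 RPKM in HS. The groups did not overlap, but the Con libraries spread over a wide range. The log2 difference was 1.07 with an SE of 0.30 (2.09-fold, adjusted p = 0.024), and it was called in 2 of the 6 fits that left out a Con or HS library, those without Con replicate 2 (adjusted p = 0.015) and HS replicate 3 (0.030).

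Abcb11, the bile salt export pump, had 68.8, 73.0 and 73.8 RPKM in Con and 87.7, 106 and 99.0 RPKM in HS. Its log2 difference was 0.43 with an SE of 0.13 (1.35-fold, adjusted p = 0.034), and the groups did not overlap. Slco1b2, the mouse counterpart of the human OATP1B carriers, had 193, 192 and 188 RPKM in Con and 222, 279 and 245 RPKM in HS. Its log2 difference was 0.37 with an SE of 0.12 (1.296-fold, adjusted p = 0.042), again without overlap. Each of them was called in 1 of the 6 fits that left out a library, the one without HS replicate 1.

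The other carriers did not pass the test. Slco1a4, which is known to be induced through the xenobiotic receptors, had 2.78, 8.43 and 5.55 RPKM in Con and 9.03, 22.9 and 10.0 RPKM in HS. All HS libraries were above the Con libraries, but the adjusted p was 0.066 for a log2 difference of 1.17 with an SE of 0.42, and HS replicate 2 stood well above the other HS libraries. Slc10a1 differed by 0.35 (95% confidence interval 0.03 to 0.68, adjusted p = 0.11), Slco1a1 by 0.05 (-0.30 to 0.40, adjusted p = 0.85) and Atp8b1 by -0.11 (-0.31 to 0.08, adjusted p = 0.40).

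The size of these calls depended on the scaling of the libraries. The median RPKM of the tested genes was 6.71 to 7.34 in Con and 7.96 to 8.21 in HS. With every library scaled to the same median, 8.66% of all genes were called, and among the transporters only Abcb4 (log2 difference 1.49, adjusted p = 1.7e-04) and Abcc2 (0.54, adjusted p = 0.022) were. Slco1a1 then differed by -0.14, without a call. With quantile normalization Abcb4, Abcc2 and Abcc3 were called higher and Atp8b1 lower (8.58% of all genes called). Without the third libraries of Con and A10, 6.83% of all genes were called, and Abcb4 (1.67, adjusted p = 0.0018) and Abcc2 (0.73, adjusted p = 0.041) were called again, while Abcc3 (adjusted p = 0.076), Abcb11 (0.095) and Slco1b2 (0.13) were not. The call of Abcc2 was lost when only the Con and HS libraries entered the fit (adjusted p = 0.053), and when the third libraries were left out and medians made equal (0.53, adjusted p = 0.11). The plot of the 4 settings shows these values.

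**Figure D2:**
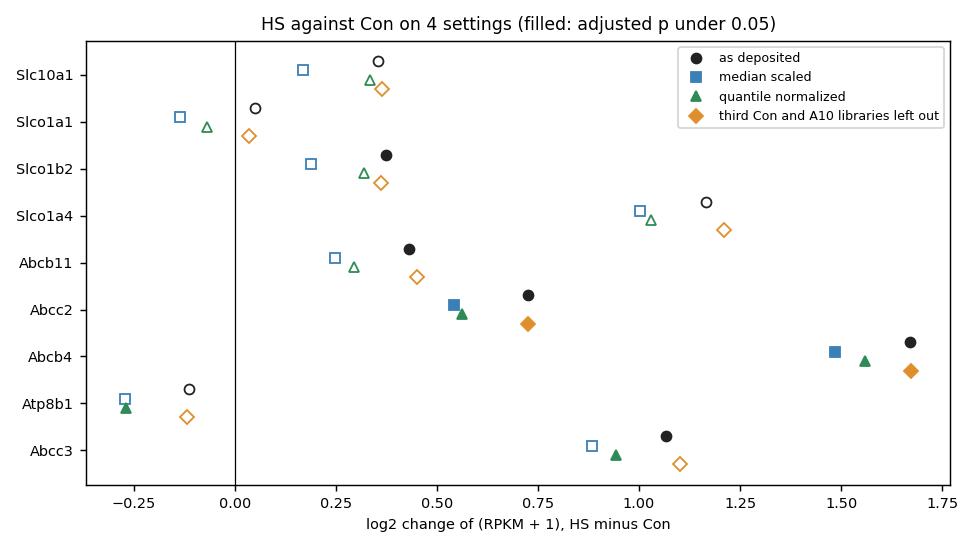
Log2 difference between HS and Con (x axis) of the 9 tested transporters (y axis) as deposited, with 2 other scalings, and with the third libraries of Con and A10 left out, each marked by its own symbol. Filled symbols passed an adjusted p of 0.05, and those of Abcb4 and Abcc2 are filled on all 4 settings.

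The same question can be asked in animals given AOS, by comparing HS+A10 with A10, whose means use neither the Con nor the HS libraries, although those libraries enter the shared estimate of the spread. Abcb4, Abcc3, Abcc2 and Slco1b2 rose, 4 of 9 transporters, where 13.6% of all genes were called higher. Abcb4 had 51.4, 42.7 and 48.4 RPKM in A10 and 128, 157 and 143 RPKM in HS+A10. It rose by 1.57 with an SE of 0.18 (2.96-fold, adjusted p = 6.7e-05), with no overlap between the groups. Abcc3 had 48.5, 43.5 and 42.0 RPKM in A10 and 103, 98.2 and 113 RPKM in HS+A10, and rose by 1.22 with an SE of 0.30 (2.32-fold, adjusted p = 0.0093). These were the highest Abcc3 levels of all groups, and every HS+A10 library lay above all other libraries of the series.

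Abcc2 had 35.9, 33.7 and 34.3 RPKM in A10 and 54.2, 57.8 and 68.7 RPKM in HS+A10, again without overlap. Its log2 difference of 0.77 with an SE of 0.16 (1.71-fold, adjusted p = 0.0033) was close to the 0.72 between HS and Con. Slco1b2 had 228, 226 and 243 RPKM in A10 and 257, 302 and 372 RPKM in HS+A10. It rose by 0.40 with an SE of 0.12 (1.32-fold, adjusted p = 0.027), but was called in only 1 of the 6 fits that left out a library of either group, and not when the A10 and HS+A10 libraries alone entered the fit (adjusted p = 0.072). Abcb11, at 93.6, 84.9 and 87.1 RPKM in A10 and 60.6, 75.2 and 86.6 RPKM in HS+A10, did not pass the test. With equal medians 23.5% of all genes were called, and so were the same 4 transporters. Without the third libraries of Con and A10, 11.4% of all genes were called, with Abcb4 (adjusted p = 0.0015), Abcc2 (0.023) and Abcc3 (0.049) among them and Slco1b2 not (0.070).

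AOS in animals without HFD and STZ gave no call among the transporters. In A10 against Con only 0.0686% of all genes were called, 7 in number, and 0 of the 9 transporters, also without the third libraries of both groups, while 7 of the 9 had an unadjusted p under 0.05 in limma, where 13.9% of all genes did. With the third libraries left out 0 genes of all were called, and 2 of the 9 transporters, Slc10a1 and Abcc2, had an unadjusted p under 0.05, where 7.14% of all genes did. All 3 A10 libraries lay above all 3 Con libraries for 7 transporters, where 19.6% of all genes did so. The exact permutation test cannot go below p = 0.1 with 3 libraries against 3. Slc10a1 had 245, 359 and 303 RPKM in Con and 511, 365 and 422 RPKM in A10. Its log2 difference was 0.52 (95% confidence interval 0.20 to 0.85, adjusted p = 0.18, exact permutation p = 0.1). Slco1a4 differed by 1.10 (0.21 to 2.00, adjusted p = 0.28), and Slco1a1, Abcc2, Abcb4, Abcc3, Abcb11 and Slco1b2 by 0.28 to 0.54. Atp8b1 differed by -0.01. Since the third libraries of both groups lay close to means of their group mates, this comparison rests on little more than 2 libraries against 2.

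Abcc2 was higher when AOS was added to HFD and STZ. In HS+A10 against HS, 2.95% of all genes were called higher and 1 of 9 transporters was called. Abcc2 stood at 54.2 to 68.7 RPKM in HS+A10 and at 34.3 to 49.3 RPKM in HS, without overlap. It rose by 0.56 with an SE of 0.16 (1.47-fold, adjusted p = 0.045). With equal medians the adjusted p was 0.016 (9.16% of all genes called), but without the third libraries of Con and A10, which enter this comparison only through the shared estimate of the spread, it was 0.086 (3.44% of all genes called), and it was called in 1 of the 6 fits that left out an HS or HS+A10 library. Abcc3 (0.69, 95% confidence interval 0.06 to 1.32, adjusted p = 0.16) and Slc10a1 (0.36, 0.04 to 0.69, adjusted p = 0.15) were above HS in every library without passing the test. Abcb11 was below HS in every library, at 60.6, 75.2 and 86.6 RPKM against 87.7, 106 and 99.0 RPKM, with a log2 difference of -0.40 (-0.68 to -0.13, adjusted p = 0.070).

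Whether the AOS effect differed between animals with and without HFD and STZ was tested as an interaction. It was called in 1 gene of all (0.00980%) and in 0 transporters. Abcb11 was the 1 transporter of 9 with an unadjusted p under 0.05 in limma, a share near that of all genes (12.9%). Its difference with AOS was 0.30 without HFD and STZ and -0.40 with them, and the interaction was -0.70 with an SE of 0.18 (unadjusted p = 0.0017, adjusted p = 0.15). It was -0.73 without the third libraries of Con and A10 (adjusted p = 0.44).

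**Figure D3:**
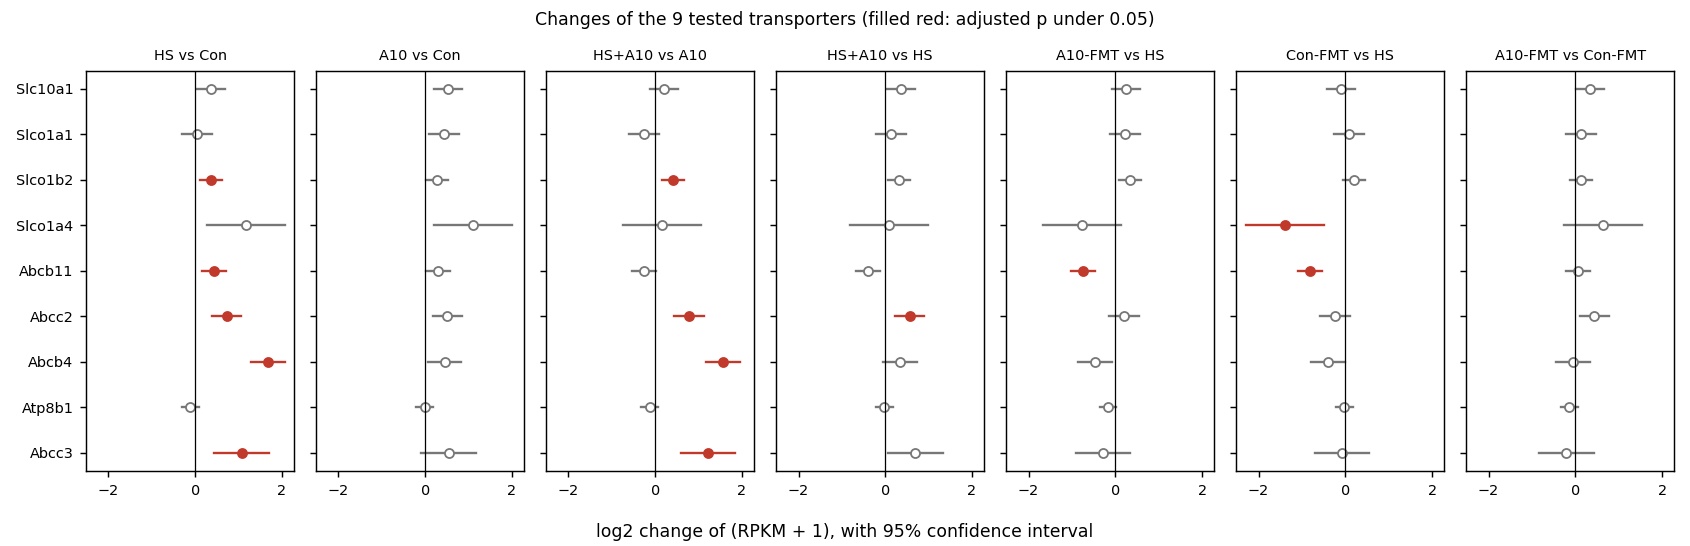
Log2 change of RPKM + 1 (x axis) of the 9 tested transporters (y axis) in the 7 comparisons, 1 panel each. Bars are 95% confidence intervals of the limma fit, and filled red points passed an adjusted p of 0.05. Abcb11 is red on the left of 0 in both recipient groups against HS (-0.75 and -0.82), and Abcb4 is red on the right of 0 in both comparisons of HFD and STZ (1.67 and 1.57).

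Recipients of fecal microbiota had less Abcb11 mRNA than HS animals, whichever donors were used. Both comparisons use the same HS libraries, so their directions are not independent. Abcb11 had 87.7, 106 and 99.0 RPKM in HS, 57.1, 68.5 and 48.0 RPKM in A10-FMT, and 52.2, 59.0 and 53.2 RPKM in Con-FMT. Every recipient library was below every HS library, and all were also below the lowest Con library (68.8 RPKM).

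In A10-FMT against HS the log2 difference of Abcb11 was -0.75 with an SE of 0.13 (adjusted p = 0.0018), and it was the only transporter called, where 21.0% of all genes were called lower. In Con-FMT against HS it was -0.82 with an SE of 0.13 (adjusted p = 6.0e-04), where 19.0% of all genes were called lower. Both differences were called in each of the 6 fits that left out a library of either group, among them the fit without Con-FMT replicate 3, and on each of 10 other settings of scaling, filter and model, but not at the paper's threshold, which asks for an absolute log2 change of at least 1. The 2 recipient groups did not differ detectably from each other, with a log2 difference of 0.06 (95% confidence interval -0.21 to 0.34).

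Slco1a4 also fell in Con-FMT. It had 9.03, 22.9 and 10.0 RPKM in HS, 4.23, 2.12 and 7.81 RPKM in Con-FMT and 8.87, 8.15 and 4.89 RPKM in A10-FMT. All recipient libraries were below the HS libraries. The log2 difference was -1.40 with an SE of 0.42 in Con-FMT (adjusted p = 0.026) and -0.77 with the same SE in A10-FMT (adjusted p = 0.19). The call in Con-FMT was lost without HS replicate 2 (-1.004, adjusted p = 0.12), without Con-FMT replicate 1 (-1.40, adjusted p = 0.057) and without Con-FMT replicate 2 (-1.03, adjusted p = 0.12), and also without the filter on low values (adjusted p = 0.062).

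Abcb4 and Abcc3 did not fall with the same clarity. Abcb4 had 95.6, 76.1 and 72.6 RPKM in A10-FMT and 103, 73.1 and 79.8 RPKM in Con-FMT, below the HS mean of 116 RPKM and above every Con library. Its differences from HS were -0.47 (adjusted p = 0.075) and -0.41 (adjusted p = 0.12). Abcc3 spread widely in A10-FMT, with 85.3, 56.6 and 30.6 RPKM, and had 66.9, 48.1 and 71.3 RPKM in Con-FMT, which overlapped HS in both groups. Abcc4, the other basolateral exporter, stood at 0.08 to 0.26 RPKM in the recipients and at 0.23 to 0.40 RPKM in the other 12 libraries, below the level required for the test. With no such filter, a fit of 19057 genes, Abcc4 was called lower than in HS in A10-FMT (log2 difference -0.21, adjusted p = 0.039) and in Con-FMT (-0.20, adjusted p = 0.042), where 11.5% and 12.7% of all genes were called.

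With every library scaled to the same median, Slc10a1 (log2 difference 0.44, adjusted p = 0.046) and Slco1b2 (0.53, adjusted p = 0.010) were called higher in A10-FMT than in HS beside the lower Abcb11, where 11.3% of all genes were called. With quantile normalization Slco1b2 was called again (0.45, adjusted p = 0.039), while Slc10a1 was not (0.35, adjusted p = 0.11), where 10.9% of all genes were called. As deposited the differences of Slc10a1 and Slco1b2 were 0.25 (adjusted p = 0.24) and 0.33 (adjusted p = 0.054). Of the 6 fits that left out a library of either group, Slc10a1 was called in 0 and Slco1b2 in 1. Slc10a1 had 474, 436 and 451 RPKM in A10-FMT and 388, 409 and 351 RPKM in HS, without overlap. Slco1b2 had 335, 280 and 325 RPKM in A10-FMT, all above the highest HS library at 279 RPKM. In Con-FMT against HS the same scaling called Abcb11 and Slco1a4 (20.6% of all genes).

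The comparison of A10-FMT with Con-FMT asks whether the donors' AOS mattered. As deposited 0 of 9 transporters were called, where 18.8% of all genes were, and 2 of the 9, Abcc2 and Slc10a1, had an unadjusted p under 0.05 in limma, where 32.5% of all genes did. Abcc2 had 56.0, 40.3 and 44.3 RPKM in A10-FMT and 33.7, 29.5 and 39.5 RPKM in Con-FMT. The groups did not overlap, and the log2 difference was 0.44 (95% confidence interval 0.10 to 0.78, adjusted p = 0.067). Slc10a1, at 404, 306 and 368 RPKM in Con-FMT, was below every A10-FMT library and differed by 0.34 (0.02 to 0.67, adjusted p = 0.13). With equal medians both were called, Abcc2 at 0.52 (adjusted p = 0.015) and Slc10a1 at 0.42 (adjusted p = 0.035), where 22.1% of all genes were, and with quantile normalization both were called again (20.8%). Without Con-FMT replicate 3, the library with pancreatic mRNAs, Abcc2 differed by 0.54 (adjusted p = 0.045) as deposited. Of the 6 fits that left out a library of either group, Abcc2 was called in this 1 only. In the others its adjusted p reached 0.24. Slc10a1 was called in 0 of these 6 fits.

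A ratio of 2 genes within a library does not depend on how the library was scaled. The ratio of Abcb4 to Abcb11 RPKM, chosen after the values had been seen and given without a test, sets the phospholipid translocase against the bile salt pump. It was 0.523, 0.452 and 0.471 in Con and 0.549, 0.503 and 0.555 in A10. It was 1.73, 1.08 and 0.815 in HS and 2.12, 2.09 and 1.65 in HS+A10. In the recipients it was 1.67, 1.11 and 1.51 for A10-FMT and 1.97, 1.24 and 1.5 for Con-FMT. All 12 libraries given HFD and STZ (0.815 to 2.12) lay above the 6 without (0.452 to 0.555). In HS both genes were above Con, while in the recipients the mean of Abcb4 was below that of HS and Abcb11 was below every HS and Con library.

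**Figure D4:**
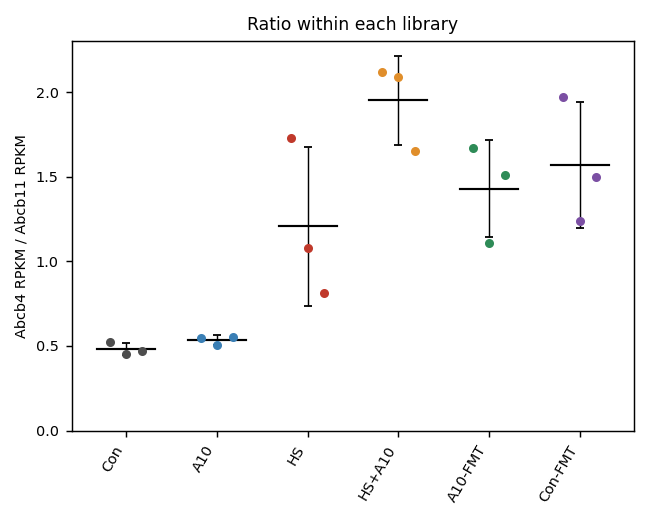
Abcb4 RPKM divided by Abcb11 RPKM in each library (y axis, linear from 0) for the 6 groups (x axis). Points are libraries, horizontal bars means and whiskers the SD of 3 libraries. The 6 Con and A10 libraries sit between 0.452 and 0.555 and the 12 libraries given HFD and STZ between 0.815 and 2.12.

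After subtraction of the group means, several transporters varied together over the 18 libraries. The closest pairs were Slc10a1 and Slco1a4 (Pearson's r = 0.76, Spearman's rho = 0.76), Abcc2 and Atp8b1 (0.75 and 0.77), and Slco1a4 and Abcc3 (0.68 and 0.75). Abcb4 and Abcb11 did not (-0.07 and -0.08). These are descriptions over libraries that share their scaling and, in Con and A10, values that are not independent of each other.

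Other hepatocyte transporters were read from a list of 19, of which 12 were tested. In HS against Con 3 rose and 1 fell, where 15.9% of all genes were called higher and 1.87% lower. Abcg5, a subunit of the sterol exporter that moves cholesterol into bile, rose by 1.29 (adjusted p = 0.0049), and Abcg2, an exporter of sulfate conjugates, by 0.63 (adjusted p = 0.0065). Abcg8, the partner of Abcg5 (1.01, adjusted p = 0.0088), was named after its value had been seen. Slc22a30 fell by 0.72 (adjusted p = 0.019). Without the third libraries of Con and A10 the same 3 rose and none fell. In HS+A10 against A10, 4 of 12 rose and 2 fell, where 13.6% of all genes were called higher and 7.28% lower. Abcg2 rose there by 1.09 (adjusted p = 1.0e-04). There 3 rose and 1 fell without the third libraries, with Abcg2 among them (adjusted p = 0.0019) and Slc22a7 (0.057) and Slc22a30 (0.065) not. In HS+A10 against HS Abcg8 alone rose (0.99, adjusted p = 0.019). Slc51b, a subunit of the basolateral bile acid exporter and a known FXR target, fell in both recipient groups against HS, by 0.91 in A10-FMT (adjusted p = 0.040) and by 1.24 in Con-FMT (adjusted p = 0.0084). Its level was low throughout, 0.63 RPKM ± 0.67 in Con-FMT, 0.94 ± 0.21 in A10-FMT and 2.68 ± 0.68 in HS (SD, n = 3 each), and its partner Slc51a was listed at 0 in all libraries but 1, at 0.04 RPKM. With equal medians the fall in A10-FMT was not called (adjusted p = 0.11).

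Of 16 genes of bile acid synthesis and conjugation, all tested, 4 rose and 1 fell in HS against Con, where 15.9% of all genes were called higher and 1.87% lower. Those that rose were Amacr (0.61, adjusted p = 8.5e-04), Slc27a2 (1.13, adjusted p = 0.0012), Scp2 (0.43, adjusted p = 0.0029) and Hsd17b4 (0.54, adjusted p = 0.0086), whose products act largely in peroxisomes. Scp2 and Hsd17b4 were named after their values had been seen. Cyp2c70, which makes muricholic acids in mice, fell by 1.33 (adjusted p = 0.011). All 5 were called again without the third libraries of Con and A10, and Scp2 was not called with equal medians (adjusted p = 0.069). Cyp7a1, the rate-limiting enzyme of the classical pathway, had 30.7, 24.3 and 27.5 RPKM in Con and 5.36, 45.7 and 22.5 RPKM in HS, a spread too wide for a call (adjusted p = 0.44). Cyp8b1, which directs synthesis to cholic acid, differed by 0.55 between HS and Con (adjusted p = 0.084) and fell in Con-FMT against HS by 0.88 (adjusted p = 0.0086). Cyp2c70 also fell in HS+A10 against HS, by 1.33 (adjusted p = 0.021).

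Of 18 nuclear receptors and signalling genes, 17 were tested and 5 rose in HS against Con, where 15.9% of all genes were called higher. Nfe2l2 had 23.3, 25.9 and 24.8 RPKM in Con and 40.5, 46.4 and 42.0 RPKM in HS. It rose by 0.78 (adjusted p = 4.0e-04) and by 0.60 with equal medians (adjusted p = 4.7e-04), the scaling on which only 1 of the 5 stayed called. On that scaling 1 gene of the list was called lower. Rxra, the partner of these receptors, rose by 0.35 (adjusted p = 0.0052) as deposited. Of the 5, only Nfe2l2 and Rxra stayed called without the third libraries of Con and A10. Nfe2l2 also rose in HS+A10 against A10 (0.72, adjusted p = 3.2e-04) and fell in Con-FMT against HS (by 0.43, adjusted p = 0.0087). Nr1h4 and its target Nr0b2 differed between HS and Con by 0.05 and -0.22, without calls. In HS+A10 Nr1h4 rose against HS (0.44, adjusted p = 0.048) and against A10 (0.55, adjusted p = 0.0066). Both Nfe2l2 (adjusted p = 0.0048) and Nr1h4 (0.037) stayed called against A10 without the third libraries. Ppara, a receptor of fatty acids, rose by 1.07 (adjusted p = 0.011) and Nr3c1, the glucocorticoid receptor, by 0.36 (adjusted p = 0.0086) in HS+A10 against HS.

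Of 16 proteins that place or hold transporters in the canalicular membrane, 15 were tested. In HS against Con 0 of them were called, where 17.7% of all genes were. In Con-FMT against HS 1 of the 15 was called, the adhesion protein Ceacam1, which fell by 1.60 (adjusted p = 0.0013). In that comparison 19.0% of all genes were called lower. In A10-FMT against HS 1 rose, Slc9a3r1 (0.48, adjusted p = 0.034). There 2 fell, Msn by 0.58 (adjusted p = 0.0067) and Hax1 by 0.34 (adjusted p = 0.017), and with equal medians these falls were not called. Of all genes 2.09% were called higher there and 21.0% lower. In A10-FMT against Con-FMT Ceacam1 (1.14, adjusted p = 0.012) and Rdx (0.25, adjusted p = 0.022) rose. Tmem30a fell by 0.34 (adjusted p = 0.028), but not with equal medians (adjusted p = 0.072). In that comparison 6.72% of all genes were called higher and 12% lower. Slc9a3r1, Msn and Rdx belong to the scaffold under the membrane. In HS+A10, Ceacam1 fell against A10 by 0.86 (adjusted p = 0.044), a call lost without the third libraries (adjusted p = 0.14). Hax1 fell in HS+A10 against HS by 0.32 (adjusted p = 0.049), a call lost with equal medians.

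Marker lists of cell types were followed beside these results. In bulk tissue fewer cells of a type and less RNA per cell cannot be told apart. Of the 5 hepatocyte markers 1 was called lower in HS against Con, where 1.87% of all genes were. In HS+A10 against A10 2 were, where 7.28% of all genes were. Without the third libraries of Con and A10 both counts were 0. In A10-FMT 1 was called lower against HS (21.0% of all genes) and 1 against Con-FMT (12%). With equal medians 0 were called lower in these 2 comparisons, and 1 was called higher against HS. The summed level of 6 cholangiocyte markers was 10.2 to 11.7 RPKM in Con, 4.55 to 5.72 in HS, 11.5 to 15.7 in Con-FMT and 3.70 to 6.34 in A10-FMT. The differences came mostly from Slc10a2, the apical bile acid carrier, whose mean of 6.50 RPKM in Con stood beside 1.08 in HS and, among the recipients, 8.31 in Con-FMT and 2.17 in A10-FMT, while Krt19 had 1.26 RPKM in Con and 1.21 in HS, and Krt7 0.707 and 0.717. Of the 3 tested markers 1, Slc10a2, was called lower in HS against Con, where 1.87% of all genes were. That of 5 Kupffer cell markers was 73.0 to 108 RPKM in Con, 79.2 to 127 in HS and 52.1 to 61.7 in A10-FMT. That of 5 erythroid markers was 1256 to 1972 RPKM in Con and 2886 to 10040 in HS. It was mostly Hba-a1, the 1 of 4 tested that was called (adjusted p = 0.031, with equal medians 0.078 and without the third libraries 0.089), and Alas2 had 117 RPKM in Con and 108 in HS. The pericentral list of 8 genes summed to 2416 to 3273 RPKM in Con, 4188 to 4861 in HS and 5877 to 7160 in HS+A10, A10-FMT and Con-FMT. Most of it was Cyp2e1, at a mean of 2183 RPKM in Con and 3558 in HS, while Cyp1a2 went from 404 to 285 RPKM. Of the 7 tested pericentral genes 4 rose in HS against Con (3 without the third libraries of Con and A10, 2 with equal medians), where 15.9% of all genes were called higher. The list's median log2 difference from HS was -0.27 in Con-FMT and -0.16 in A10-FMT, against -0.12 and -0.16 over all genes. With equal medians the list's median was -0.15 in Con-FMT and 0.02 in A10-FMT. The periportal list of 6 genes summed to 1931 to 2306 RPKM in Con and 2637 to 3158 in HS. In it Pck1 went from a mean of 311 RPKM in Con to 1023 in HS, while Cyp2f2, the largest part, went from 1417 to 1233. The other genes of the list had higher means in HS. Of the 6, 1 was called higher in HS against Con (1 with equal medians, and Pck1 alone without the third libraries). The 4 stellate cell markers summed to 13.01 to 19.66 RPKM in Con and 34.47 to 35.27 in HS, mostly Colec11. In HS against Con 2 of them rose (1 with equal medians, 1 without the third libraries). The 4 sinusoidal endothelium markers summed to 32.65 to 36.64 RPKM in Con and 35.72 to 39.43 in HS. Of these 1 rose, and 0 with equal medians or without the third libraries. In HS+A10 against A10 2 stellate and 3 endothelial markers rose (2 and 2 without the third libraries), where 13.6% of all genes were called higher. The part of these shifts in the transporter results was not tested.

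Genes with a known sex bias were read because several Slco genes differ between male and female liver. In HS against Con 2 of 9 male-predominant genes fell and 1 of 4 tested female-predominant genes rose, where 1.87% of all genes were called lower and 15.9% higher. In HS+A10 against A10 3 of these 4 rose (13.6% of all genes called higher, 7.28% lower), and 1 of the 9 male-predominant genes rose and 1 fell. When the third libraries of Con and A10 were left out, 1 of the 9 fell and 1 of the 4 rose in HS against Con, and in HS+A10 against A10 2 of the 4 rose and 1 of the 9 fell. Slco1a1, which is itself known as male-predominant, stayed at 111 to 203 RPKM over all libraries and was called in no comparison.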

How the data were processed

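Liver mRNA was enriched with oligo(dT) beads by the authors, who aligned the reads with SOAPaligner to a set of reference genes, and RPKM values with 2 decimals were deposited. The submitters' processing notes also list Bowtie 0.12.2 and mm10. Values were used as deposited and transformed as log2(RPKM + 1), so that changes of low genes are understated. The 10204 genes whose mean reached 1 RPKM were fitted in R 4.3.3 with limma 3.58.1, with 1 mean per group over all 18 libraries and a variance trend. P-values are two-sided and adjusted over all tested genes by the Benjamini-Hochberg method, with 0.05 as the threshold of a call. Exact two-sided permutation tests were run in Python 3.11.15 with scipy 1.17.1. The paper's DEGseq test was not used because it ignores the spread between replicates.

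The genes, lists and tests were chosen with earlier results of these data known. All 10 transporters are named. From the other lists, counts are given for some comparisons only, with up to 2 called genes per direction, and Slc51b, Cyp7a1, Cyp8b1, Nr1h4 and Nr0b2 whatever they showed. Where a gene is named without a count, other genes of its list may have been called too. Some genes of these lists are not reported here. Groups came from the sample labels. Nothing says whether libraries came from separate animals, so p-values measure the spread between these libraries. The fit was tested on simulated data. The alternatives were median scaling, a pseudocount of 0.1, a minimum mean of 5 RPKM or none, quantile normalization, only the compared groups in the fit, a replicate block, no variance trend, the paper's threshold and each library left out. The fits without the third libraries of Con and A10 were chosen after seeing the data.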

Additional observations from a re-analysis of the deposited data

How the results depend on the processing

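Abcb4 was called in HS against Con and in HS+A10 against A10, and Abcb11 in both recipient groups against HS, on each setting run except, for Abcb11, the paper's threshold. The number of reads of the libraries is not given in the sources used here, so no detection limit is given for Abcc4. The cause of the changes below was not tested, apart from fewer libraries or other genes entering a fit.

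The share of all genes called under each setting stands in parentheses after the number of called transporters. In HS against Con it was 5 (17.7%). It was 2 without the filter on low values (8.65%), 2 with median scaling (8.66%), 1 with only the compared groups in the fit (5.55%), 1 at the paper's threshold (log2 change of 1 or more in size, adjusted p up to 0.001; 0.382%), 2 without the third libraries of Con and A10 (6.83%), and 1 without them after median scaling (2.86%). In HS+A10 against HS it was 1 (7.32%), and 0 without the filter (2.70%), with only the compared groups (0.559%), at the paper's threshold (0.0196%) and without the third libraries (3.44%). In HS+A10 against A10 it was 4 (20.9%), and 1 at the paper's threshold (1.29%). It was 3, with Slco1b2 lost, with only the compared groups (23.7%), without the third libraries (11.4%) and without them after median scaling (13.7%). In A10-FMT against HS it was 1 (23.1%), and 2 without the filter (11.5%, Abcc4 added), 3 with median scaling (11.3%), 2 with quantile normalization (10.9%), 0 at the paper's threshold (0.323%) and 2 without the third libraries after median scaling (7.43%). In Con-FMT against HS it was 2 (23.6%), and 1 with only the compared groups (7.82%), 0 at the paper's threshold (0.941%) and 1 without the third libraries after median scaling (15.8%). Without the filter it was also 2 (12.7%), but with Abcc4 in place of Slco1a4. In A10-FMT against Con-FMT it was 0 (18.8%), and 2 with median scaling (22.1%), 2 with quantile normalization (20.8%) and 1 without the third libraries after median scaling (17.4%). The log2 difference of Slco1a1 between HS and Con, 0.05, was -0.14 with median scaling, -0.067 with quantile normalization and -0.16 without the third libraries after median scaling.

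With each library left out in turn, the count ranged from 2 to 5 in HS against Con (2 without Con replicate 1, Con replicate 3 or HS replicate 2, and 3 without HS replicate 3), from 3 to 4 in HS+A10 against A10, from 0 to 2 in HS+A10 against HS (2 without HS replicate 1, and 0 without HS replicate 2, HS+A10 replicate 1 or HS+A10 replicate 2), from 1 to 2 in A10-FMT against HS (2 without HS replicate 2, HS replicate 3 or A10-FMT replicate 1), from 1 to 3 in Con-FMT against HS (1 without HS replicate 2, Con-FMT replicate 1 or Con-FMT replicate 2) and from 0 to 1 in A10-FMT against Con-FMT (1 without Con-FMT replicate 3). The difference of Slco1a1 between HS and Con ranged from -0.037 to 0.13, and it was negative without Con replicate 1 (-0.02) or HS replicate 2.

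Deviations of same-numbered libraries from their group means had correlations from -0.09 to 0.26. The highest were those of replicates 1 and 3 in HS+A10 and HS (0.23 and 0.26). No reference for such values was computed, so they cannot decide whether the numbers pair the libraries. With a replicate block in the fit, the counts of called transporters were 5, 0, 4, 1, 1, 2 and 0 in the 7 comparisons and 0 for the interaction, as without it.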
